A study of Mus musculus with 10 samples.

Results

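The genes described here are the ubiquitin-specific proteases of mouse dendritic cells, taken as every gene of the deposited count table whose mouse symbol starts with Usp and a digit, with Usp18 left out. The rule used names only and gave 43 genes of the 19178 in the table, and all 43 passed the filter on low counts that left 18248 genes for testing. Poly(A) RNA of dendritic cells, which take up antigen and show it to T cells, was sequenced in 10 libraries, 5 labelled Ptbp1 deficient and 5 labelled WT (wild type), from mice aged 8 to 10 weeks. The question is how transcript levels change where dendritic cells lack normal Ptbp1, whose product binds polypyrimidine tracts in RNA and regulates splicing and mRNA fate. The labels give no strain, sex, tissue of origin, allele or Cre driver, no treatment, and do not say whether every library is from its own animal, and p-values here reflect the spread among these libraries alone.

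Ubiquitin-specific proteases (USPs) are cysteine proteases that cut ubiquitin from proteins or from ubiquitin chains and so reverse the work of ubiquitin ligases. They form the largest family of deubiquitinases, and its members differ in where they act: on histones, at sites of DNA damage, on the proteasome, at endosomes, the endoplasmic reticulum and mitochondria, or in receptor signalling. Several serve innate immune signalling by trimming chains on adaptors and kinases of the Toll-like receptor, cytokine receptor and RNA sensor pathways. The symbol rule also took in Usp6nl, which encodes a GTPase-activating protein for Rab5 and is not a protease, and Usp39, whose product works in the spliceosome.

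Levels are given in CPM (counts scaled to library size) after TMM scaling, a correction for library composition, with the SD over the 5 libraries of a group. Fold changes are Ptbp1-deficient over WT, and each adjusted p-value is that of edgeR's quasi-likelihood test after Benjamini-Hochberg correction across the 18248 genes. A gene was called changed at an adjusted p under 0.05. The gene rows held 61759378 to 92697815 counts in the Ptbp1-deficient libraries, against 50516163 to 66153758 in WT. Ptbp1 itself stood at 73.2 to 75.7 CPM in the Ptbp1-deficient libraries and 259 to 312 CPM in WT, so every library matched its label. All 14 dendritic cell markers were measured, with summed levels of 34450 to 37660 CPM against 29070 to 35300 CPM in WT. Most of that sum is Cd74, H2-Ab1 and H2-Aa, so it says little of the others. Of the 14 markers, 6 rose, 4 fell and 4 were not called. Within them the cDC1 gene Xcr1 rose from 117 ± 16.3 to 376 ± 52.0 CPM (1.69 in log2, adjusted p = 7.8e-07) and the cDC2 gene Sirpa fell from 886 ± 45.9 to 589.5 ± 49.5 CPM (-0.59 in log2, adjusted p = 2e-05). Of 13 macrophage markers 9 fell and the other 4 had values below 0 without passing, and their summed level was 439 to 1009 CPM against 1276 to 3685 CPM. The 8 B cell markers summed to 92.6 to 112 CPM against 119 to 591 CPM, and the 8 NK cell markers to 69.4 to 124 CPM against 3.18 to 44.2 CPM. T cell markers summed to 39.3 to 48.1 against 26.5 to 68.9 CPM, neutrophil markers to 78.1 to 149 against 45.5 to 694.5 CPM and erythroid markers to 14.2 to 74.5 against 24.8 to 89.3 CPM, with overlap in each. The highest WT sum of the macrophage, B cell, NK cell, T cell, neutrophil and erythroid markers was in each case that of WT replicate 5. In the other WT libraries T cell markers reached 33.7 CPM, below all Ptbp1-deficient libraries, neutrophil markers 93.8 CPM and erythroid markers 51.2 CPM. No tested marker was at 0, since every gene row of the table has at least 2 counts in each library. In bulk RNA, fewer cells of a type and less RNA per cell cannot be told apart, and the part these markers play in the Usp differences was not tested beyond a fit with the macrophage score as a covariate. The score, the mean log2 CPM of the macrophage markers, was 3.28 to 5.50 in Ptbp1-deficient and 5.69 to 7.41 in WT libraries. Since the groups do not overlap in it, the fit cannot cleanly part the score from genotype. That fit dropped the calls of Usp1, Usp4, Usp15 and Usp28, added Usp42 to the falls (adjusted p = 0.024), and moved 3 called values by over 1.5 times, those of Usp3, Usp8 and Usp36.

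Of the 43 Usp genes, 8 rose, 9 fell and 26 were not called. The 17 called genes were 39.5% of the members, against 45.0% of all genes tested in this comparison, where 21.9% were called higher and 23.1% lower. The family's share of calls was near that background, in each direction. Differences were small. The median log2 fold change of the members was -0.018 against -0.026 for all genes, and the median size without regard to sign was 0.10 against 0.28 for all genes and 0.26 for the 15796 genes within the members' range of mean CPM (0.365 to 357). The lower end of that range is set by Usp2 alone, far below most members, so it is no match on level. Usp11, Usp35 and Usp27x, all lower, were the members past 1.5-fold, where 18.3% of all genes were called and past that fold. No member passed 2-fold. For 16 members the groups of 5 libraries were fully apart, 7 higher and 9 lower, against 33.4% of all genes in either direction. The split of 8 higher and 9 lower was 4 and 12 with upper-quartile scaling, which added Usp20, Usp31 and Usp34 to the falls, and 2 and 10 of 40 members in the deposited FPKM values. Over all genes, upper-quartile scaling called 3456 of 18248 higher and 4845 lower, and the FPKM values 2435 of 11968 higher and 3261 lower.

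**Figure D1:**
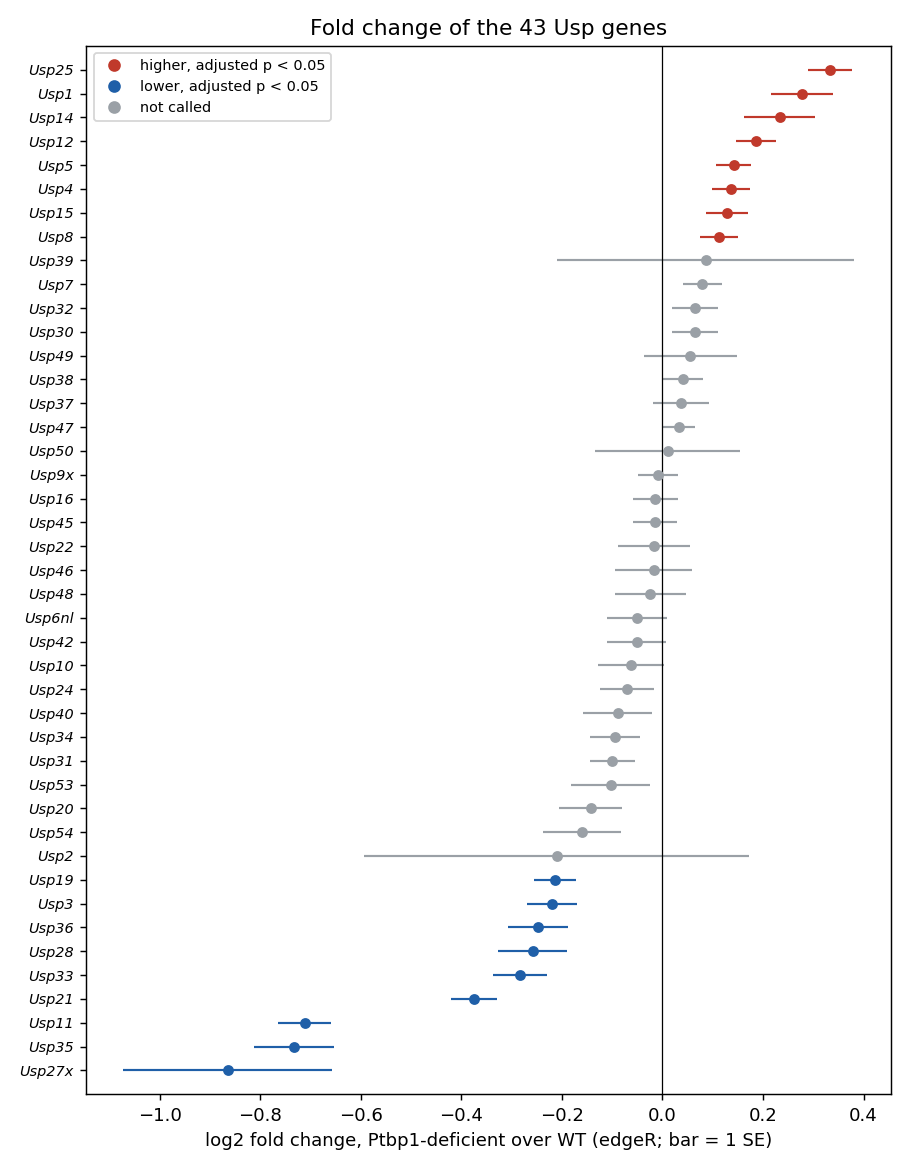
Log2 fold change of each of the 43 Usp genes (x axis, Ptbp1-deficient over WT, from counts with edgeR), with bars of 1 SE and the genes ordered by value on the y axis. Most points lie close to 0; Usp25 is the highest at 0.33, and Usp11, Usp35 and Usp27x stand apart at -0.71 to -0.86.

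The falls reached further than the rises, and 3 genes led them. Usp11 encodes a nuclear protease with known roles in DNA repair and lies on the X chromosome (ENSMUSG00000031066, protein coding, GRCm38 chromosome X, bases 20703906 to 20720539, plus strand). It stood at 42.3, 41.0, 39.0, 38.0 and 37.6 CPM in WT replicates 1 to 5 and at 25.0, 25.1, 24.5, 21.7 and 24.5 CPM in Ptbp1-deficient replicates 1 to 5. Every Ptbp1-deficient library was therefore well below every WT library, and the means were 24.2 ± 1.40 against 39.6 ± 2.02 CPM (38.9% lower, a log2 change of -0.71 with an SE of 0.053, adjusted p = 1.8e-06). Usp35, whose product has been linked to mitochondria (ENSMUSG00000035713, protein coding, GRCm38 chromosome 7, bases 97309380 to 97332020, minus strand), had 86.9, 81.7, 78.8, 74.4 and 75.7 CPM in WT replicates 1 to 5. In Ptbp1-deficient replicates 1 to 5 it had 53.0, 54.8, 41.8, 43.03 and 46.7 CPM, with replicates 1 and 2 the highest of the group and still below all WT libraries. Its means were 47.9 ± 5.82 against 79.5 ± 5.02 CPM (39.8% lower, a log2 change of -0.73 with an SE of 0.079, adjusted p = 2.1e-05). Usp27x, an X-linked relative of the histone deubiquitinase Usp22, was scarce (ENSMUSG00000046269, protein coding, GRCm38 chromosome X, bases 7371276 to 7375830, minus strand). WT replicates 1 to 5 had 2.26, 1.71, 2.61, 2.10 and 1.45 CPM and Ptbp1-deficient replicates 1 to 5 0.871, 1.28, 1.204, 0.826 and 1.38 CPM, so the groups came close without overlapping (45.1% lower, a log2 change of -0.86 with an SE of 0.21, adjusted p = 0.0052). Its lowest library held 53 counts, and its SE was the widest among the called genes.

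Because 2 of these genes are X-linked, Xist, the RNA of the inactive X chromosome, was read in the same libraries. It was at 3.34 and 2.66 CPM in Ptbp1-deficient replicates 1 and 2, at 830 to 1757 CPM in the other 3, and at 864 to 1821 CPM in WT. So 2 libraries, both Ptbp1-deficient, stood apart from the other 8, and Xist was not balanced between the groups. Whether the sex of the animals differed was not tested, as the labels give none. Usp11 differed little between the low-Xist libraries and the rest of their group: it was at 25.0 and 25.1 CPM in Ptbp1-deficient replicates 1 and 2 and at 21.7 to 24.5 CPM in replicates 3 to 5. Without replicates 1 and 2 its log2 fold change was -0.75 (adjusted p = 3.2e-05) and that of Usp27x was -0.84 (adjusted p = 0.024). The X-linked Usp9x, which encodes a large protease of many substrates, was not called (122 ± 4.58 against 123 ± 4.22 CPM, adjusted p = 0.88).

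The 6 other falls were of 13.8% to 22.9%. Usp21, which encodes a protease of ubiquitinated histone H2A, was at 48.6, 42.9, 46.0, 47.5 and 48.3 CPM in WT replicates 1 to 5 and at 37.2, 37.4, 34.5, 34.5 and 36.4 CPM in the Ptbp1-deficient ones (22.9% lower, a log2 change of -0.38 with an SE of 0.046, adjusted p = 5.6e-05). Its groups were clearly apart, with SDs of 2.33 CPM in WT and 1.42 CPM in Ptbp1-deficient libraries. Usp33, a relative of Usp20 first described as a partner of the von Hippel-Lindau protein, had 37.8, 37.4, 33.4, 37.9 and 34.0 CPM in WT and 27.4, 29.3, 31.6, 29.5 and 30.4 CPM in Ptbp1-deficient libraries (17.8% lower, a log2 change of -0.28 with an SE of 0.054, adjusted p = 0.0013). Of its annotated exon bases 24.4% are shared with genes on the opposite strand, and whether the counting used strand is not given. Usp28, which stabilises MYC and binds 53BP1, had 16.7, 14.7, 14.0, 16.0 and 15.8 CPM against 13.9, 12.3, 13.6, 12.1 and 12.5 CPM (16.4% lower, a log2 change of -0.26 with an SE of 0.069, adjusted p = 0.0095). The groups of Usp28 nearly touched, and it did not pass once the macrophage marker score was a covariate (log2 fold change -0.24, adjusted p = 0.089).

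Usp36, a nucleolar protease, stood at 36.9, 41.7, 42.5, 38.8 and 40.4 CPM in WT and 36.4, 36.5, 31.0, 31.8 and 33.1 CPM in Ptbp1-deficient libraries (15.8% lower, a log2 change of -0.25 with an SE of 0.059, adjusted p = 0.0052). Usp3, which acts on ubiquitinated H2A and H2B, stood at 64.1, 68.9, 71.3, 64.3 and 63.0 and 58.9, 60.9, 54.7, 56.3 and 54.0 CPM (14.1% lower, a log2 change of -0.22 with an SE of 0.049, adjusted p = 0.0034). The nearest libraries of the 2 groups were at 36.5 and 36.9 CPM for Usp36 and at 60.9 and 63.0 CPM for Usp3. In the fit with the macrophage score the log2 changes were -0.38 for Usp36 (adjusted p = 0.0012) and -0.33 for Usp3 (adjusted p = 0.00069). Usp19, which has a protein form anchored in the endoplasmic reticulum, was the most abundant of the genes that fell, with 253, 268, 269.8, 269 and 261 CPM in WT. In Ptbp1-deficient replicates 1 to 5 it had 239, 239, 215, 227 and 219 CPM, all below the lowest WT library (13.8% lower, a log2 change of -0.21 with an SE of 0.042, adjusted p = 0.0015). Among the histone and chromatin proteases, 4 of 9 members (Usp3, Usp21, Usp27x and Usp36) fell and none rose, where 23.1% of all genes were called lower and 21.9% higher; the roles were assigned with the values known, and no test was made of the group.

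**Figure D2:**
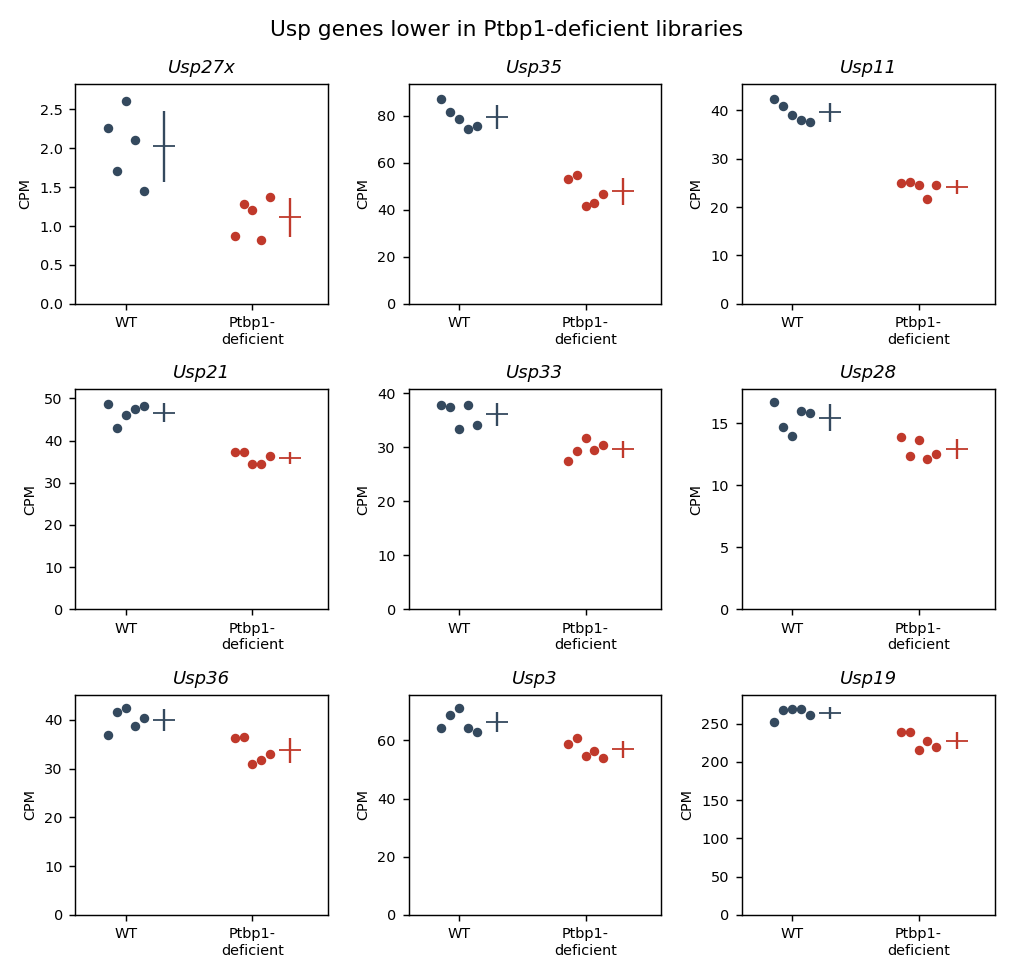
CPM of the 9 Usp genes called lower, 1 point per library, with the mean and SD (bars, n = 5) beside the points; y axes start at 0 and differ between panels. In each panel all Ptbp1-deficient points lie below all WT points, with the widest gaps for Usp11 and Usp35.

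The rises were smaller. Usp25, a regulator of cytokine and Toll-like receptor signalling that trims chains on TRAF adaptors, led them (ENSMUSG00000022867, protein coding, GRCm38 chromosome 16, bases 77013706 to 77116780, plus strand). It had 106, 113, 113, 113 and 120.1 CPM in WT replicates 1 to 5 and 140.5, 150.5, 137, 148 and 137 CPM in the Ptbp1-deficient ones. The highest WT library was below the lowest Ptbp1-deficient library, and the means were 142 ± 6.28 against 113 ± 5.01 CPM (1.26-fold, a log2 change of 0.33 with an SE of 0.044, adjusted p = 9.2e-05). Usp1 encodes the protease that, bound to Wdr48, removes ubiquitin from Fancd2 and PCNA. It had 61.1, 73.8, 74.6, 77.7 and 71.8 CPM in WT and 87.9, 90.2, 85.0, 81.0 and 90.9 CPM in Ptbp1-deficient libraries (1.21-fold, a log2 change of 0.28 with an SE of 0.062, adjusted p = 0.0034). WT replicate 1 was the lowest library of Usp1, and the other 4 WT libraries also lay below all Ptbp1-deficient ones. Adding the macrophage marker score to the model, Usp1 did not pass (log2 fold change 0.19, adjusted p = 0.091).

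Usp12, which shares Wdr48 as its activator with Usp1, was the most abundant member, with 324, 343, 337, 329.6 and 336 CPM in WT and 374, 377, 383, 405 and 360.2 CPM in Ptbp1-deficient libraries (1.14-fold, a log2 change of 0.19 with an SE of 0.040, adjusted p = 0.0027). Its groups did not overlap. The proteases of the proteasome and of free ubiquitin chains, Usp14 and Usp5, both rose. Usp14, which sits on the proteasome, had 35.4, 41.0, 38.8, 40.1 and 35.0 CPM in WT and 39.98, 40.3, 47.5, 47.3 and 48.4 CPM in Ptbp1-deficient replicates 1 to 5 (1.18-fold, a log2 change of 0.23 with an SE of 0.071, adjusted p = 0.018). It was the called member whose groups overlapped: Ptbp1-deficient replicates 1 and 2 were within the WT range, and replicates 3 to 5 above it. Without WT replicates 1 and 5 together, which held the most macrophage transcripts, Usp14 did not pass (log2 fold change 0.16, adjusted p = 0.096), nor without Ptbp1-deficient replicate 5 (adjusted p = 0.051). Of its annotated exon bases 26.0% are shared with Thoc1 on the opposite strand. Usp5, which takes apart unanchored chains, had 83.5, 81.6, 85.6, 83.5 and 80.1 CPM against 89.1, 90.9, 96.2, 90.3 and 90.5 CPM (1.10-fold, a log2 change of 0.14 with an SE of 0.035, adjusted p = 0.0067), groups that were narrowly apart.

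The remaining rises were of 1.08-fold to 1.10-fold. Usp4 and Usp15 are close relatives of Usp11 with roles in TGF-beta signalling. Usp4 had 152, 155, 162, 156 and 145 CPM in WT and 175, 166, 168, 171 and 165 CPM in Ptbp1-deficient libraries (1.10-fold, a log2 change of 0.14 with an SE of 0.038, adjusted p = 0.012). Usp15 had 87.7, 94.3, 82.6, 91.0 and 89.7 against 96.3, 98.8, 95.8, 102 and 94.5 CPM (1.09-fold, a log2 change of 0.13 with an SE of 0.042, adjusted p = 0.025), with the nearest libraries 94.3 and 94.5 CPM. Usp8, the endosomal protease that spares receptors from degradation, had 131, 131, 128, 125 and 128 against 132, 136, 138, 148 and 142 CPM (1.08-fold, a log2 change of 0.11 with an SE of 0.038, adjusted p = 0.031), with the nearest libraries 131 and 132 CPM. Differences of this size depended on the scaling: with upper-quartile normalization Usp4, Usp5, Usp8 and Usp15 were not called (adjusted p = 0.074, 0.052, 0.20 and 0.13). In the fit with the macrophage score Usp4 and Usp15 did not pass either (adjusted p = 0.19 and 0.11). The calls of Usp8 and Usp15, near the threshold in the main fit, did not hold in every fit with 1 library left out. Usp8 did not pass without Ptbp1-deficient replicate 4 or 5 or WT replicate 2, 3 or 4 (adjusted p of 0.056 to 0.097), and Usp15 not without Ptbp1-deficient replicate 2 or 4 or WT replicate 3 (0.058 to 0.074). With the macrophage score the log2 change of Usp8 was 0.17 (adjusted p = 0.018). With the replicate number as a block, Usp8 had an adjusted p of 0.084.

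**Figure D3:**
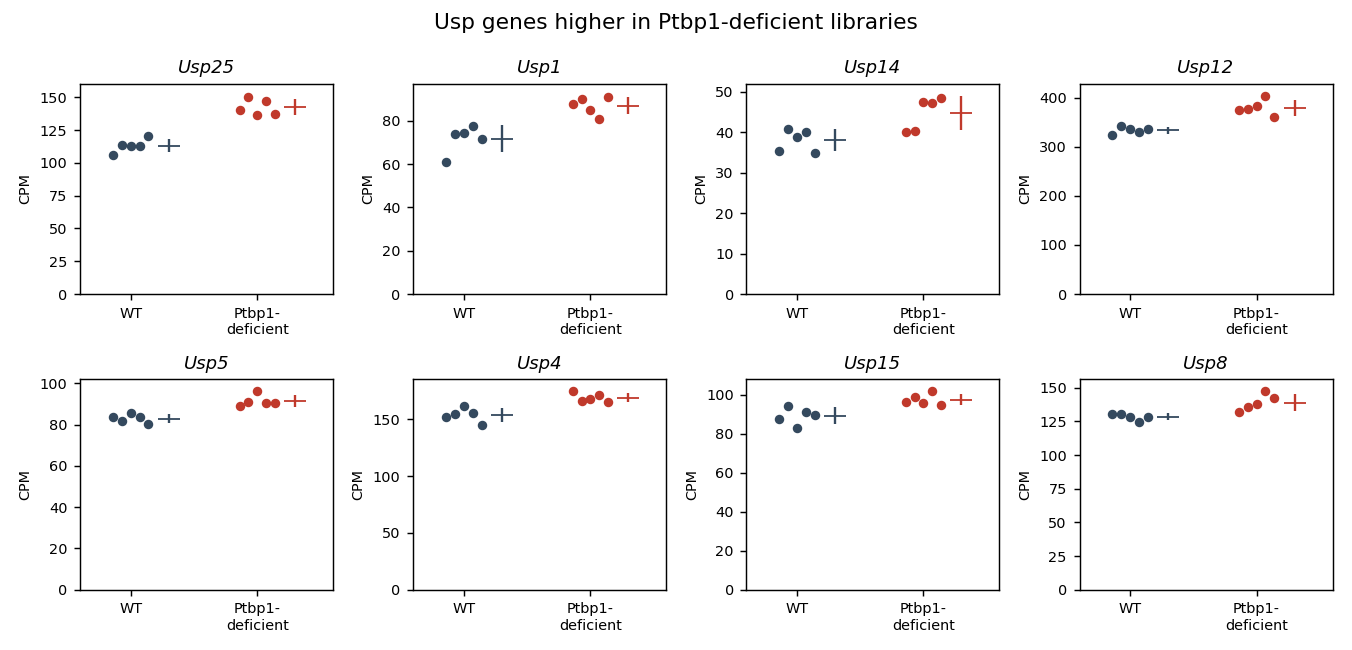
CPM of the 8 Usp genes called higher, 1 point per library, with the mean and SD (bars, n = 5) beside the points; y axes start at 0 and differ between panels. The separation is visible for Usp25, Usp1 and Usp12 and slight for Usp15 and Usp8, and Usp14 overlaps.

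The RefSeq promoter windows of the leading risen gene and of the fallen genes Usp11 and Usp35 are shown to let their make-up be compared, on GRCm38.p6, as the 250 bases before the annotated start, 5′ to 3′ on the gene's strand. Capitals mark matches, on either strand, to the GC box GGGCGG, the CCAAT box CCAAT or the ETS core CCGGAAG.
Usp25, chr16:77013819-77014068 (plus strand): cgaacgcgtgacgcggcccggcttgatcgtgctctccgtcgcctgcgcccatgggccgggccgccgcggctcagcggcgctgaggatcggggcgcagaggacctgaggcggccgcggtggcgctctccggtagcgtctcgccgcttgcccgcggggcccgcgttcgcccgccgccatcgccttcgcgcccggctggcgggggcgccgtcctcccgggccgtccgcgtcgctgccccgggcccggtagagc
Usp35, chr7:97332110-97332359 (minus strand): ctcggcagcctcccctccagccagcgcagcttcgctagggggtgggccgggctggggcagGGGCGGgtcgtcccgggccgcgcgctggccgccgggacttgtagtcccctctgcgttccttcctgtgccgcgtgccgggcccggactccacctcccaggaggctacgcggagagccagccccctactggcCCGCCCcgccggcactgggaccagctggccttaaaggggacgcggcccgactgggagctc
Usp11, chrX:20703659-20703908 (plus strand): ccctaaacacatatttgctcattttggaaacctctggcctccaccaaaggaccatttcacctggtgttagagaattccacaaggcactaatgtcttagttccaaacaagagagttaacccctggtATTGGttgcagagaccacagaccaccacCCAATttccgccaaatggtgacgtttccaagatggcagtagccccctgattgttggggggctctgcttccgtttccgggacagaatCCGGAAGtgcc
The Usp25 window holds none of these motifs and the Usp35 window 2 GC boxes; the RefSeq start of Usp35 lies upstream of the gene as GENCODE annotates it, and the Usp25 window lies inside the GENCODE gene, downstream of its first annotated base. The windows of Usp25 and Usp35 are rich in CpG, with 47 and 25 CpG dinucleotides and a G and C content of 80.0% and 75.6%. The Usp11 window has 5 CpG dinucleotides and a G and C content of 50%, with 2 CCAAT boxes and 1 ETS core. RefSeq windows were found for 34 members, 35 windows in all. The GC box was in 71.4% of these and in 32.7% of all 32817 windows of this length, the ETS core in 20% against 6.90%, and the CCAAT box in 14.3% against 33.8%. The E2F core TTTNNCGC was in 2 member windows, 5.71% against 4.28%, and the core of the interferon-stimulated response element in 1, that of Usp49, or 2.86% against 2.97%. GC boxes were present in 4 of 5 windows of risen members, 7 of 8 of fallen members and 14 of 22 of the uncalled. These are matches of letters, not measured binding.

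Counts by role are to be read against the 45.0% of all genes that were called, and each member was counted in 1 role. Of the 7 members tied to DNA damage or Wdr48, 2 rose (Usp1 and Usp12) and 1 fell (Usp28). Usp11, also tied to DNA repair, was counted with its relatives Usp4 and Usp15 in a group of 4, where 2 rose and 1 fell. Of the 9 at endosomes, the endoplasmic reticulum, Golgi or mitochondria 1 rose (Usp8) and 3 fell (Usp19, Usp33 and Usp35), and of the 5 in immune and NF-kB signalling 1 rose (Usp25) and 4 were not called. Uncalled members covered most roles of the family. Their log2 fold changes ran from -0.21 (Usp2, at 0.14 to 0.64 CPM in any library) to 0.086 (Usp39), and 22 of the 26 were within 0.1 of 0. Usp7, the protease of the p53 and Mdm2 pair, stood at 215, 236, 218, 219 and 219.5 CPM in WT and 234, 239, 222, 236 and 239 CPM in Ptbp1-deficient libraries (a log2 change of 0.079 with an SE of 0.039, adjusted p = 0.12), so the groups overlapped. Usp48, which acts on the NF-kB subunit RelA, had 272, 258, 251, 235 and 231 and 264, 269, 213, 226 and 254 CPM (a log2 change of -0.024 with an SE of 0.071, adjusted p = 0.81), a spread within each group far wider than the difference between them. Usp22, the catalytic subunit of the SAGA deubiquitinase module, was at 85.5 ± 6.03 against 86.6 ± 8.41 CPM (adjusted p = 0.87), and the H2A protease Usp16 at 60.9 ± 2.12 against 61.5 ± 3.38 CPM (adjusted p = 0.83). Usp30, which opposes Parkin on the mitochondrial outer membrane, was at 22.2 ± 0.502 against 21.2 ± 0.808 CPM (adjusted p = 0.28). Usp47, with a role in base excision repair, had an SE of 0.032 around a log2 fold change of 0.032, the tightest estimate of the family. Usp10, the partner of the stress granule protein G3bp1, was at 46.1 ± 1.86 against 48.1 ± 4.71 CPM (adjusted p = 0.47). Usp6nl, the Rab5 regulator, was at 178 ± 14.8 against 185 ± 8.92 CPM (adjusted p = 0.52). The nearest to the threshold were Usp20 (log2 fold change -0.14, adjusted p = 0.081), Usp31 (-0.10, adjusted p = 0.093) and Usp54 (-0.16, adjusted p = 0.11).

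Related Usp genes were also set against each other. The family holds pairs and trios of close relatives, and for 11 such pairs with both members measured the ratio of their counts was taken within each library, which needs no scaling between libraries. The pairs were drawn up with the members' values known, 3 of them are made of Usp4, Usp11 and Usp15, and a ratio of a called rise over a called fall (Usp25 to Usp28, Usp4 or Usp15 to Usp11) restates those calls, so the p-values are no further support. The ratio of Usp25 to Usp28 was 6.36, 7.72, 8.07, 7.07 and 7.57 in WT replicates 1 to 5 and 10.1, 12.2, 10.0, 12.2 and 10.9 in Ptbp1-deficient replicates 1 to 5, with no overlap (difference of mean log2 ratios 0.59, exact permutation test, two-sided, p = 0.00794, adjusted p = 0.0175 over the 11 ratios). Against its relative Usp4, Usp11 lost ground: the ratio of Usp4 to Usp11 was 3.58, 3.77, 4.15, 4.10 and 3.85 in WT and 6.98, 6.63, 6.83, 7.88 and 6.75 in Ptbp1-deficient libraries (difference of mean log2 ratios 0.85, exact permutation test, two-sided, p = 0.00794, adjusted p = 0.0175 over the 11 ratios). Usp15 over Usp11 gave a difference of 0.84 with the same p-values, while Usp4 over Usp15 overlapped between the groups, at 1.73, 1.64, 1.96, 1.71 and 1.61 against 1.82, 1.68, 1.75, 1.68 and 1.75 (difference 0.0074, exact permutation p = 0.929). Usp38 and its relative Usp35 were nearly equal in Ptbp1-deficient libraries, with ratios of 0.916, 0.905, 1.15, 1.08 and 0.988, whereas in WT Usp38 was the lower, with ratios of 0.527, 0.572, 0.561, 0.621 and 0.647 (difference of mean log2 ratios 0.78, exact permutation test, two-sided, p = 0.00794, adjusted p = 0.0175 over the 11 ratios). In this pair Usp38 was not called, so the change in the ratio goes with the fall of Usp35.

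The other ratios moved less or overlapped. Usp42 over Usp36 rose from a range of 0.785 to 0.964 to a range of 0.971 to 0.995 (difference 0.20, exact permutation p = 0.00794, adjusted p = 0.0175), and it missed an adjusted p of 0.05 when any of Ptbp1-deficient replicates 1 to 5 was left out. Usp22 over its relative Usp27x was higher in Ptbp1-deficient libraries (difference 0.85, exact permutation p = 0.0159, adjusted p = 0.0291), with the groups overlapping at 59.3 and 59.6. This ratio did not pass without Ptbp1-deficient replicate 2, 3 or 4 (adjusted p = 0.052 each). Usp12 over Usp46, which share Wdr48, had a difference of 0.21 (exact permutation p = 0.0317, adjusted p = 0.0499), and that call was lost when any of 9 libraries was left out, Ptbp1-deficient replicate 1 being the exception. Usp20 over Usp33, Usp53 over Usp54 and Usp16 over Usp45 overlapped between the groups (differences 0.14, 0.053 and 0.0033, adjusted p = 0.175, 0.718 and 0.952). The smallest p that 5 against 5 libraries can give is 0.00794.

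**Figure D4:**
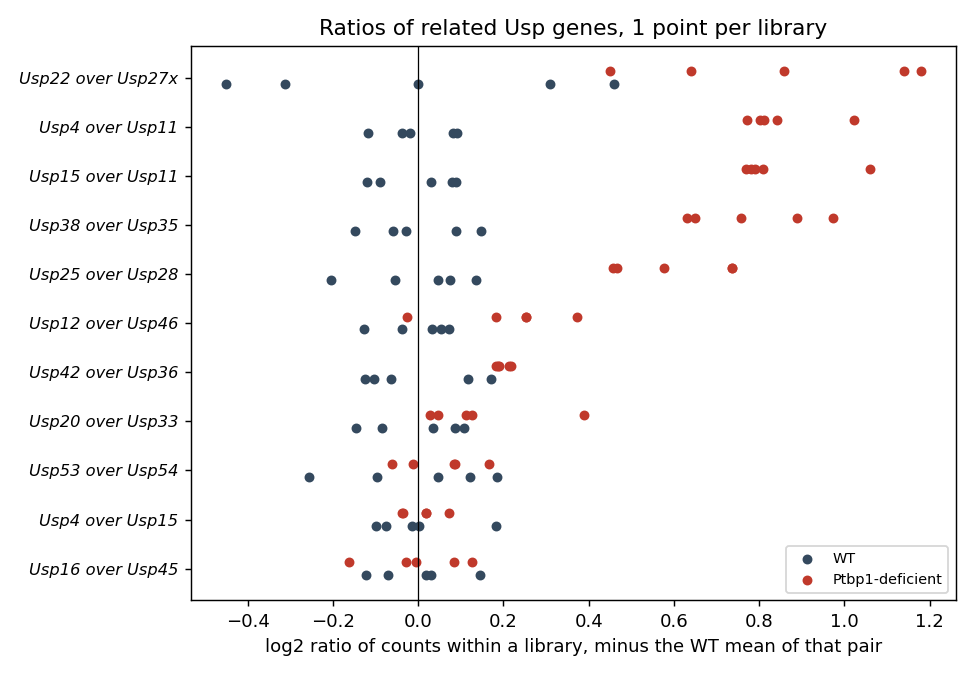
Log2 ratio of counts of 2 related Usp genes within a library, minus the WT mean of that pair (x axis), for 11 pairs (y axis), with 1 point per library. For Usp4 over Usp11, Usp15 over Usp11, Usp38 over Usp35 and Usp25 over Usp28 all Ptbp1-deficient points lie to the right of all WT points, while Usp4 over Usp15 and Usp16 over Usp45 are mixed.

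Levels between genes can be compared per length in the deposited FPKM values (fragments scaled by gene length and library size), which list 40 of the members. In WT libraries Usp12 was highest at 76.6 ± 2.00 FPKM, followed by Usp7 at 55.4 ± 2.87, Usp48 at 53.8 ± 10.0 and Usp19 at 53.1 ± 1.83 FPKM, of which the last 3 did not differ beyond their spread. Usp4 came next at 34.7 ± 2.92 FPKM. The lowest listed members were Usp54 at 1.64 ± 0.225 and Usp50 at 1.85 ± 0.130 FPKM. Usp25, at 29.2 ± 1.43 FPKM in Ptbp1-deficient and 24.3 ± 0.717 in WT libraries, was well above its relative Usp28, at 3.59 ± 0.334 and 4.57 ± 0.647 FPKM.

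On the log2(FPKM + 1) scale with limma, 2 members were called higher and 10 lower, against 20.3% and 27.2% of the 11968 genes of that table. Usp25 (difference 0.25, adjusted p = 0.00074) and Usp12 (0.11, adjusted p = 0.03) were the rises that passed. Usp1 (0.073, adjusted p = 0.37), Usp14, Usp4, Usp15 and Usp8 kept a positive sign without passing, and Usp5 had a difference of -0.013 (adjusted p = 0.88), with means of 25.6 ± 0.349 and 25.9 ± 3.04 FPKM. The falls held up better, with Usp11 at 5.78 ± 0.593 against 10.4 ± 0.756 FPKM (difference -0.75, adjusted p = 1.7e-05) and Usp35 at 11.3 ± 1.37 against 20.6 ± 2.30 FPKM (-0.81, adjusted p = 4.6e-05). Usp19, Usp21, Usp28, Usp33 and Usp36 passed too, Usp3 did not (adjusted p = 0.069), and Usp10, Usp24 and Usp34 passed there but not in the TMM-scaled counts of all 10 libraries. In counts Usp34 passed with upper-quartile scaling and without Ptbp1-deficient replicates 1 and 2, and Usp10 without WT replicates 1 and 5. Members lay lower in the FPKM comparison in general, with a median of -0.099 against -0.052 for all its genes.

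**Figure D5:**
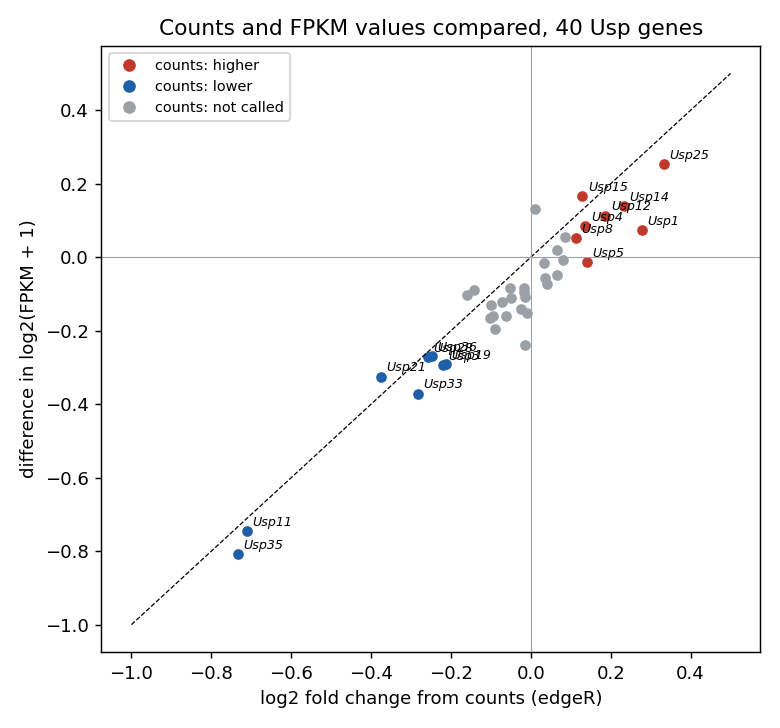
Difference in log2(FPKM + 1) (y axis, limma) against the log2 fold change from counts (x axis, edgeR) for the 40 Usp genes in both tables, with the dashed line where they are equal. Usp11 and Usp35 are lowest on both axes, and Usp5 is above 0 from counts and just below 0 from FPKM.

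Usp39 stood out as the member whose tables disagreed in level. Its counts came to 0.921, 0.639, 1.04, 1.80 and 1.21 CPM in WT and 1.28, 1.03, 1.74, 0.688 and 1.23 CPM in Ptbp1-deficient libraries, as few as 33 counts in a library. Its deposited FPKM were 11.4 ± 0.285 and 10.9 ± 0.544, a level like those of Usp21 and Usp38 (14.1 ± 1.19 and 12.2 ± 0.599 FPKM in WT), which had 46.7 and 46.4 CPM there. The FPKM table lists a second identifier with the name Usp39 (ENSMUSG00000104250), which is no row of the count table, at 10.9 ± 0.338 and 10.5 ± 0.490 FPKM. Reads listed as not aligned to a unique place made up 4.51% to 5.08% of each library, and those listed as ambiguous 1.785% to 1.935%. Both are in no gene row. Their part in the Usp39 counts was not tested, and no change is read from those counts.

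Genes listed by deubiquitinase family or fold, outside the Usp genes, changed in both directions. Not every product on these lists cuts ubiquitin, Cops5, Pan2 and Uspl1 being the exceptions to keep in mind. Of 34 tested members of 6 lists, 10 rose and 12 fell, 64.7% in all against 45.0% of all genes tested (21.9% higher and 23.1% lower), with a median log2 fold change of -0.038; whether this share differs from that of the Usp genes or of all genes was not tested. The lists hold 3 to 13 tested genes each, and their counts stand beside the same background. All 3 Josephin-type proteases fell, among them Josd2 from 44.9 ± 3.19 to 34.0 ± 1.78 CPM (-0.40 in log2, adjusted p = 0.00015) and Atxn3, the ataxin-3 gene, from 56.8 ± 4.68 to 43.9 ± 1.77 CPM (-0.37 in log2, adjusted p = 0.00032). Of 7 JAMM metalloproteases 3 rose and 2 fell. Psmd14, the deubiquitinase subunit of the proteasome lid, rose from 62.0 ± 3.80 to 89.1 ± 6.62 CPM (0.52 in log2, adjusted p = 3.2e-05) and Cops5, the catalytic subunit of the COP9 signalosome, from 52.5 ± 3.88 to 67.3 ± 3.86 CPM (0.36 in log2, adjusted p = 0.00039). In the OTU family 3 of 13 rose and 4 fell, with Otud5 going from 193 ± 7.46 to 166 ± 3.40 CPM (-0.22 in log2, adjusted p = 5e-04) and Vcpip1 from 95.9 ± 3.22 to 111 ± 4.54 CPM (0.21 in log2, adjusted p = 0.0013), and its NF-kB regulator Tnfaip3 was not called (238 ± 29.2 against 275 ± 89.2 CPM). Uchl3 rose and Bap1 fell among 3 UCH members, 3 of 5 MINDY and ZUP1 members rose and 2 fell, and none of Cyld, Uspl1 and Pan2, which share the USP fold, was called. Among the MINDY and ZUP1 rises, Mindy4 was scarce, at 0.238 ± 0.0534 against 0.0987 ± 0.0828 CPM in WT. The groups overlapped for Mindy4 and for Zup1 (adjusted p = 0.041 each).

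Among 14 partners of USPs, 3 rose and 4 fell, near the background of 21.9% and 23.1%. Dmwd, whose product joins the Usp12 and Usp46 complexes, fell from 5.80 ± 1.24 to 1.93 ± 0.331 CPM (-1.59 in log2, adjusted p = 2.2e-05), and G3bp2, a stress granule protein, rose from 79.2 ± 2.56 to 91.1 ± 1.71 CPM (0.20 in log2, adjusted p = 0.00066). Wdr48 itself, the shared activator of Usp1, Usp12 and Usp46, was not called (55.8 ± 1.52 against 60.5 ± 3.60 CPM, adjusted p = 0.056). Eny2, a subunit of the SAGA module that holds Usp22, rose from 25.6 ± 1.16 to 30.5 ± 2.35 CPM (0.25 in log2, adjusted p = 0.0049). Atxn7 and Atxn7l3, other subunits of that module, were not called. Of 6 ubiquitin and E1 genes Uba1 and Rps27a rose and none fell; Ubb was at 694 ± 55.4 against 679 ± 60.9 CPM (adjusted p = 0.77).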

How the data were processed

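Poly(A) RNA libraries were sequenced as paired 150 bp reads on an Illumina HiSeq, per the labels' protocols. One deposited table gives whole-number gene counts with no scaling; the other deposited table gives FPKM, each at least 1 in every library. Per the submitters' processing notes, the tools were HISAT2, StringTie and DESeq2, without versions, and the build was the human GRCh38, although the identifiers are mouse Ensembl. The counter, its strand setting and the annotation: not given in the sources used here.

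Symbols and coordinates came from GENCODE M21 (GRCm38), where 19035 counted identifiers had a symbol and 143 had none. Repeated rows of the FPKM table with equal values were used once, leaving 11968 of 11978. Genes were filtered with filterByExpr, scaled by TMM and tested with edgeR 4.0.16 (limma 3.58.1, R 4.3.3), genotype being the only term. FPKM were tested with limma on log2(FPKM + 1). Ratios were compared by exact permutation over all 252 assignments. Alternatives were RLE and upper-quartile scaling, DESeq2 1.42.0, limma-voom with quality weights, 2 other filters, the replicate block, FPKM, a threshold of 0.01, a macrophage score covariate and left-out libraries; the ratio tests were added after seeing the data. No 2 replicates were alike within sampling noise, but the libraries of a group were not evenly spaced. A chi-square of their counts, per gene, was 5.20 between Ptbp1-deficient replicates 1 and 2. Between these and replicates 3 to 5 it was 32.1 to 52.1. Among WT replicates 2 to 4 it was 8.31 to 9.97, against 36.5 to 97.7 for pairs with WT replicate 1 or 5. The source of this grouping was not tested.

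Members, lists and tests were chosen with earlier results of these data known. Full values are given for called members, up to 12 in each direction, and for the 3 highest in FPKM (Usp12, Usp7 and Usp48); Usp14, Usp39 and the other members named were chosen after their values were seen. Up to 2 genes with the smallest adjusted p are given per further list. Tnfaip3, Eny2, Wdr48, Ubb, Mindy4 and Zup1 were added after their values were seen.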

Additional observations from a re-analysis of the deposited data

Results flagged for a closer look

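Among 86 groups of 5 libraries (43 members in 2 groups), 7 had a library whose gap to its nearest neighbour was above 0.71 of the group's range; chance alone gives about 1 in 20. Usp11 had 21.7 CPM in Ptbp1-deficient replicate 4 against 24.5 to 25.1 CPM in the other 4. Usp5 had 96.2 CPM in Ptbp1-deficient replicate 3 against 89.1 to 90.9 CPM. Usp20 had 20.3 CPM in Ptbp1-deficient replicate 1 against 17.8 to 18.2 CPM, and without that library it was called lower. Usp45 had 64.7 CPM in Ptbp1-deficient replicate 2 against 56.7 to 58.4 CPM. In WT, Usp22 had 72.0 CPM in replicate 1 against 86.6 to 92.0 CPM, Usp47 had 128 CPM in replicate 1 against 133 to 134 CPM, and Usp7 had 235.5 CPM in replicate 2 against 215 to 219.5 CPM.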

How the results depend on the processing

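The count of Usp genes that rose (8) was 4 with upper-quartile scaling and at a threshold of 0.01, 2 in each of the 3 FPKM fits, and 5 both without WT replicates 1 and 5 and with the macrophage covariate. Over all genes tested, 3998 rose in the main fit, 3456 with upper-quartile scaling and 2841 at 0.01. They were 4019 without WT replicates 1 and 5, 3229 with the covariate, and 2435, 2435 and 2110 in the smaller FPKM fits. With single libraries left out, 6 to 8 Usp genes rose, and 3558 to 4143 of all genes tested. The count of Usp genes that fell (9) stayed at 9 to 12 over all 24 settings. Upper-quartile scaling, which gave the 12, called 4845 of all genes lower against 4216 in the main fit. Usp25, Usp12, Usp11, Usp35, Usp21, Usp19, Usp33 and Usp36 passed in 24 of 24 and Usp27x in all 21 that could test it. Usp5 changed sign in the FPKM fits (-0.013 with a pseudocount of 1, -0.014 with 0.1 and -0.013 with a floor of 5 FPKM); the cause was not tested. The members' median log2 fold change was -0.062 with upper-quartile scaling, -0.099, -0.11 and -0.084 in the FPKM fits, -0.075 without Ptbp1-deficient replicates 1 and 2, -0.082 with the covariate and -0.056 to -0.0058 with single libraries left out. The medians over all genes in the same fits were -0.070 with upper-quartile scaling and -0.052, -0.059 and -0.0355 from FPKM. They were -0.039 without Ptbp1-deficient replicates 1 and 2, -0.010 with the covariate and -0.036 to -0.0117 with single libraries left out.

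Among the ratios, Usp20 over Usp33 passed from FPKM (0.30, adjusted p = 0.045). With single libraries left out, Usp42 over Usp36 ranged from 0.17 to 0.24, Usp12 over Usp46 from 0.17 to 0.26 and Usp22 over Usp27x from 0.74 to 0.97, each losing its call at least once. Replicate numbers did not pair the libraries: same-numbered libraries correlated at -0.193 to 0.23 over 13768 genes, and 0 of 5 correlated best with their own number. With the replicate block 7 members rose and 9 fell, Usp8 being the call lost, and 3768 and 3770 of all 18248 genes rose and fell. Depth limits Usp2, Usp27x and Usp39, with as few as 7, 53 and 33 counts.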
